A study of Mus musculus with 2 samples.

Results

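The genes described here are named as encoding proteins of the mitochondrial ribosome. They were chosen by name, as every gene whose symbol on the array begins with Mrpl or Mrps and a number, and the rule uses no measured value, although the set was picked for description with earlier results of these data known. The array holds 76 such genes on 106 probes, among 30222 named genes. Subunits were counted by symbol, Mrpl as large (47 genes) and Mrps as small (29 genes). By structure, Mrps30 and Mrps18a belong to the large subunit, and Mrps36 was placed in neither. All 76 genes had a probe well above background on both arrays, so none was lost to the filter on dim probes.

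Mitochondria carry their own ribosome, which translates the few proteins still encoded by mitochondrial DNA. In mammals these are core subunits of the respiratory chain and ATP synthase. The small subunit binds the messenger RNA and reads its codons, and the large subunit forms the peptide bonds and passes the new chain out through a tunnel at the inner membrane. Every protein of this ribosome is encoded in the nucleus, made in the cytosol and imported. Some are homologues of bacterial ribosomal proteins and others exist only in mitochondria.

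Mononuclear cells of the bone marrow (BM MNCs), a mixed population of blood-forming and immune cells, were flushed from femurs of C57BL/6 mice (strain given as C57/Bl6J) aged 2 to 4 months, in IMDM with 2% FBS. Their cultures were ended at day 11, either with no treatment (negative control) or with the herbal drug ninjin'yoeito (NYT), a mixture of plant extracts. Total RNA of each culture was labelled with Cy3 and hybridised to 1 one-colour array, and both arrays lay on 1 slide. The design asks how expression in the NYT culture differed from that in the untreated culture. No source used here gives the dose, the number of animals or whether both cultures came from shared animals.

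Each group had 1 array, so every difference below is between 2 arrays, has no replicate check and carries no p-value. The NYT array was the dimmer, with a 75th percentile intensity of 728 against 1475 on the control array, a ratio of 2.03. Differences are therefore given as log2 of NYT over control after each array was divided by its own 75th percentile, and a value of 1 is a 2-fold difference. On that scale the median of the 17007 genes measured on both arrays was 0.29. It was -0.73 without scaling, -0.02 after loess normalization and -0.90 after scaling to 8 spike-in RNAs. Higher and lower thus hold for a stated scaling, and the position of a gene relative to the median of all genes is given beside them.

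The cell label was checked against marker genes. All 5 pan-leukocyte genes were well above background on both arrays, with differences from -1.15 (Coro1a) to 0.91 (Laptm5), and Ptprc, which encodes CD45, had an intensity of 9495 in control and 2429 in NYT. All 6 macrophage genes were measured, from -5.21 (C1qa) to 1.18 (Cd68). The 6 neutrophil genes had a median of -2.19, the 5 megakaryocyte genes -4.50, the 4 measured mast cell and basophil genes -5.90, the 4 measured T and NK cell genes -2.47, the 5 B cell genes -0.28 and the 4 measured stromal genes -3.54. Of the erythroid genes, Alas2 and Klf1 were not well above background on either array. The part of these differences in the results below was not tested. In a bulk culture, fewer cells of a type and less RNA per cell cannot be told apart.

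The mitochondrial ribosomal protein genes lay together, above the middle of all genes. Their median difference was 0.70 (1.62-fold), with quartiles of 0.49 and 0.94 and a range from -0.11 to 1.61. Of the 76 genes, 69 lay above the median of all genes, where 50% of all measured genes lie. After scaling, 74 genes were above 0, against 64.4% of all genes, and 2 genes, Mrps5 and Mrps9, were below.

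Few of them differed by a large factor. At least 2-fold higher on the NYT array were 13 of the 76 genes, or 17.1%, against 11.2% of all measured genes. None was at least 2-fold lower, against 11.0% of all genes. At the smaller step of 1.5-fold, 47 genes were higher (61.8%), against 30.4% of all genes. Before scaling only 12 of the 76 were brighter on the NYT array than on the control array, and their median was -0.32. Under spike-in scaling that median was -0.49 and 3 genes were above 0. The number above the median of all genes was 69 in both of these settings, since a single shift per array moves every gene alike.

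**Figure D1:**
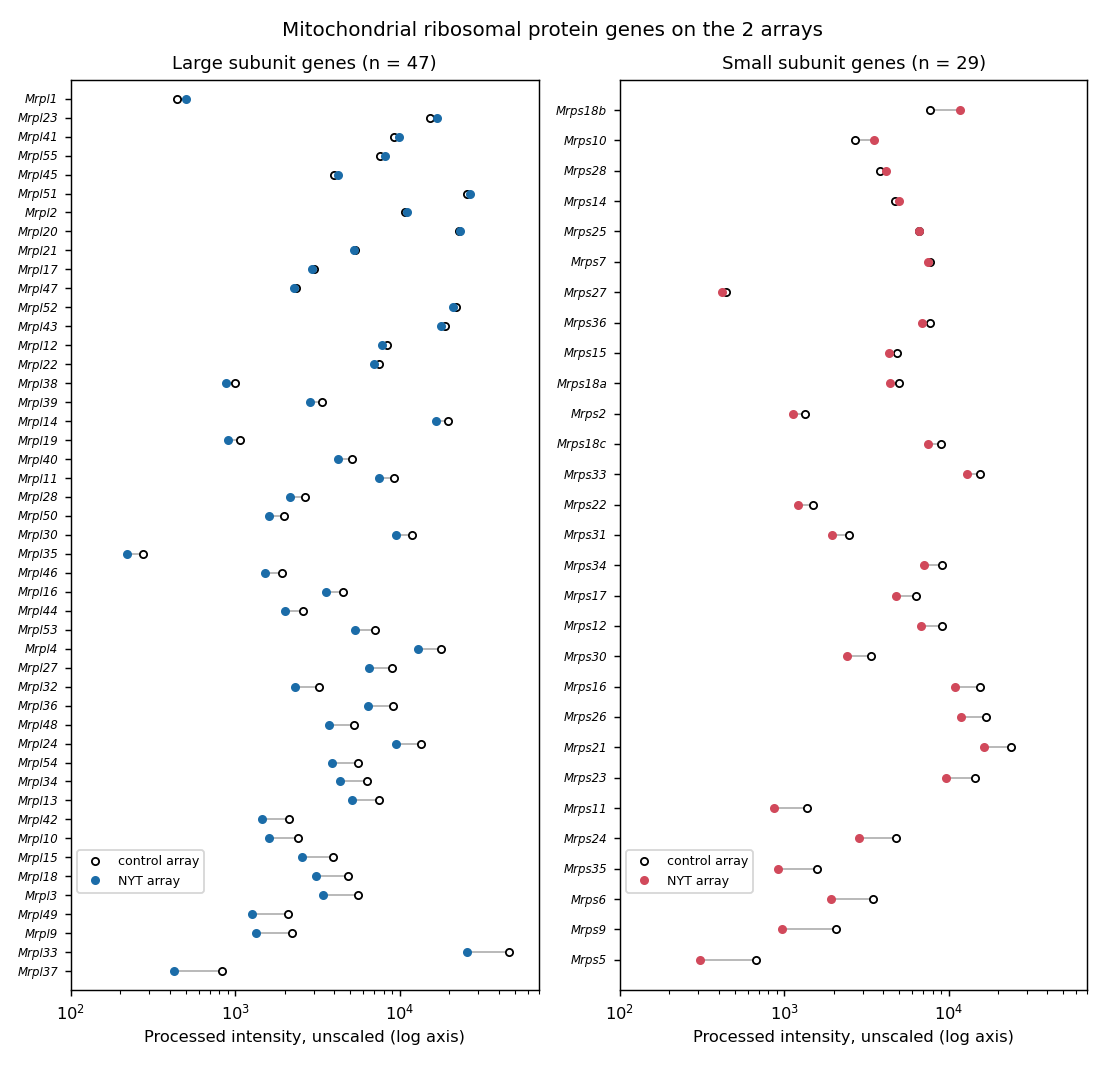
Processed intensity of every mitochondrial ribosomal protein gene on the control array (open circles) and the NYT array (filled circles), before scaling, on log axes, with large subunit genes on the left and small subunit genes on the right. Genes are ordered by their difference; the NYT point lies to the right of the control point in 12 of 76 genes, and a scaling to the 75th percentile moves all NYT points to the right by 1.02 on the log2 scale.

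The genes also differed less among themselves than genes at large. Their differences had an SD of 0.33 and an interquartile range of 0.45, against 1.11 and 0.96 over all measured genes. Of the 76 genes, 69 (90.8%) lay within 0.5 of their own median, and 53.5% of all genes lay within 0.5 of theirs. These genes were also brighter than most. The median control intensity was 5225 for these genes and 1429 for all genes. Among the 4252 brightest genes, the 41 mitochondrial ribosomal protein genes had a median of 0.76 and an interquartile range of 0.46, against 0.45 and 0.73 for all genes there. Among the next 4252 genes, 29 members had 0.66 and 0.42, against 0.23 and 0.85 for all. The place above the middle and the smaller spread were thus seen at like brightness too. Across the 76 genes the control and NYT levels, which share probes and array design, correlated with a Pearson r of 0.979, against 0.935 over all genes.

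**Figure D2:**
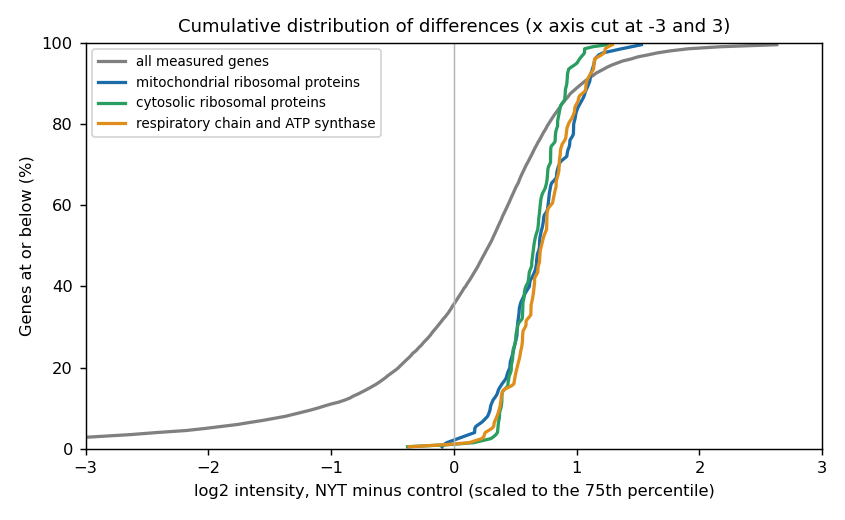
Cumulative share of genes (y axis, percent) at or below a given log2 difference, NYT minus control, scaled to the 75th percentile (x axis, cut at -3 and 3), for all measured genes, the 76 mitochondrial ribosomal protein genes, 79 cytosolic ribosomal protein genes and 77 respiratory chain and ATP synthase genes. The curves of these 3 sets are steep. At their medians they lie to the right of the curve of all genes (0.70, 0.65 and 0.71 against 0.29). Without scaling all curves shift left by 1.02. Under quantile normalization the cytosolic median was 0.04, below the 0.20 of all genes.

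The only error that the arrays give is the spread between spots of a probe printed more than once. Over 247 such probes its median SD on the log2 scale was 0.031 for control, 0.041 for NYT and 0.052 for their difference. It covers neither cultures nor hybridisations. Mrpl50, printed 10 times, had 0.70 ± 0.04 (SD, n = 10 spots). Mrpl34 had 0.47 ± 0.05 (SD, n = 7 spots, after 3 outlier spots on the control array) and Mrps35 had 0.23 ± 0.07 (SD, n = 10 spots). In the order of the 76 genes, 69 of 75 gaps between neighbours were smaller than this median spot SD, so most neighbours cannot be told apart even within these 2 arrays. The largest gap was 0.22, between Mrps18b and Mrps10.

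Large and small subunit genes had nearly the same middle. The median was 0.70 for the 47 large subunit genes (quartiles 0.50 and 0.96) and 0.67 for the 29 small subunit genes (quartiles 0.48 and 0.87), a difference of 0.02. The difference of the means was 0.03. The sign of the difference of medians was not stable, as large minus small was -0.02 after normexp background correction and 0.09 after quantile normalization. At least 2-fold higher were 8 large subunit genes (17.0%) and 5 small subunit genes (17.2%), against 11.2% of all genes. Above the median of all genes lay 45 of 47 large and 24 of 29 small subunit genes.

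The small subunit genes had the wider range, and the large subunit genes the wider middle, with an interquartile range of 0.46 against 0.38. The small subunit genes ran from -0.11 to 1.61 with an SD of 0.39, and the large subunit genes from 0.05 to 1.19 with an SD of 0.28. All 47 large subunit genes lay within the range of the small ones. The highest 2 and the lowest 2 of all 76 genes, namely Mrps18b, Mrps10, Mrps9 and Mrps5, belong to the small subunit, and the other 25 small subunit genes lay within the range of the large ones. A few genes thus make up the difference in range, and it was not tested.

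**Figure D3:**
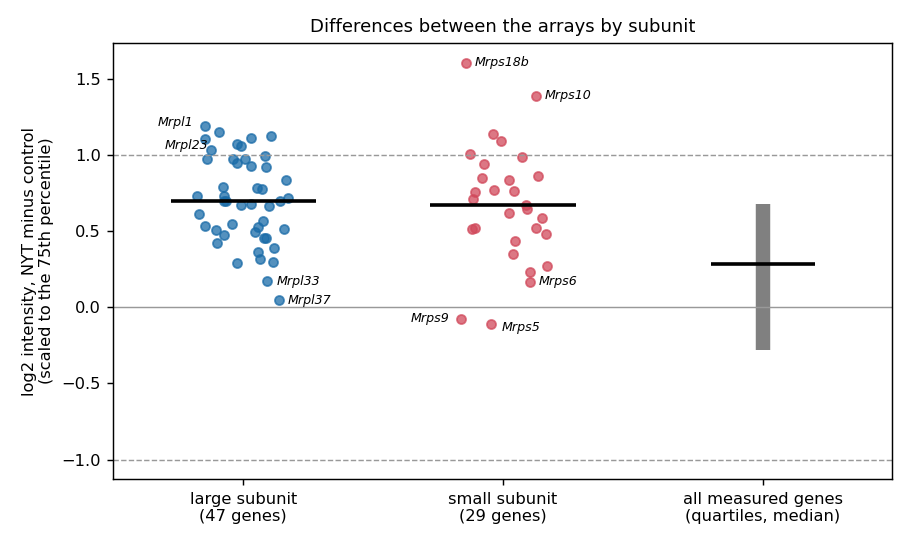
Log2 difference, NYT minus control, scaled to the 75th percentile (y axis), for each gene of the large (47) and small (29) subunit, with black bars at the medians of 0.70 and 0.67; the grey bar spans the quartiles of all measured genes, -0.28 and 0.68, with their median of 0.29. The points overlap over nearly all of their range, and the 4 small subunit genes outside the large subunit's range are labelled; under no scaling or spike-in scaling most points lie below 0.

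Among large subunit genes with a bacterial homologue, the highest was Mrpl1, whose bacterial counterpart forms the mobile L1 stalk. It had 445 on the control and 502 on the NYT array, a difference of 1.19 (2.28-fold), and was among the 6 members dimmer than the median gene. Mrpl23, a protein of the tunnel exit, had 15354 and 16810, a difference of 1.15 (2.22-fold). Mrpl55 had 7614 and 8124, a difference of 1.11. These genes were brighter on the NYT array even before scaling. Mrpl2, whose bacterial counterpart sits near the peptidyl transferase centre, had 10798 and 11101 (1.06), and Mrpl20 had 22918 and 23164 (1.03). Mrpl20 was also among the 3 brightest large subunit genes. Over all 30 genes of this class the median was 0.70 and the range ran from 0.17 to 1.19. At least 2-fold higher were 5 (16.7%, against 11.2% of all genes).

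The low end of this class lay close to or below the middle of all genes. Mrpl33 was the brightest of all 76 genes, with 45994 on the control and 25564 on the NYT array, and its difference was only 0.17. Under quantile normalization, loess and the authors' value table it was the lowest of the 76. Mrpl9 had 2221 and 1344 (0.29), and Mrpl3 had 5556 and 3422 (0.32). Before scaling these 3 genes were dimmer on the NYT array.

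The 19 large subunit genes found only in mitochondria had the same median, 0.70, with 3 at least 2-fold higher (15.8%, against 11.2% of all genes). This class includes Mrps30 (0.52) and Mrps18a (0.83), which the structure of the ribosome places in the large subunit in spite of their names. Mrpl41 was the highest, with 9215 and 9932 (1.13). Mrpl45, a protein at the tunnel exit that faces the inner membrane, had 3980 and 4237 (1.11). Mrpl51 had 25847 and 26828 (1.07). At the other end Mrpl49 had 2090 and 1271 (0.30) and Mrpl37 had 835 and 426 (0.05), the lowest value of any large subunit gene. Counted by place in the structure, with Mrps36 left out, large minus small was 0.04.

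By place in the large subunit, the 8 tunnel exit genes had a median of 0.95. Besides Mrpl23 and Mrpl45 they were Mrpl17 (3027 and 2939, 0.98), Mrpl47 (2354 and 2285, 0.97), Mrpl22 (7447 and 6955, 0.92), Mrpl39 (3350 and 2864, 0.79), Mrpl44 (2581 and 2017, 0.66) and Mrpl24 (13573 and 9511, 0.51). These proteins ring the opening from which the new chain leaves the ribosome. The 8 genes of the central protuberance, the crest that faces the small subunit, had a median of 0.61. They ran from Mrpl52 (21886 and 21213, 0.97), Mrpl38 (996 and 879, 0.84) and Mrpl40 (5137 and 4213, 0.73) over Mrpl46 (0.68), Mrpl27 (0.54), Mrpl36 (0.53) and Mrpl48 (0.51) to Mrpl18 (4857 and 3088, 0.36). The stalk that recruits translation factors had Mrpl12 at 0.93 (8348 and 7832), Mrpl11 at 0.73 (9205 and 7531) and Mrpl10 at 0.43 (2419 and 1604). Every gene of these 3 groups lay above the median of all genes, as did 45 of 47 large subunit genes and 50% of measured genes. The ranges of these 3 groups overlap, and no difference between them was tested.

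In the small subunit, the 16 genes with a bacterial homologue had a median of 0.60 and a range from -0.11 to 1.39. Mrps10 had 2716 on the control and 3516 on the NYT array, a difference of 1.39 (2.62-fold). Mrps28 had 3840 and 4180 (1.14), and Mrps14 had 4734 and 4981 (1.09). These 3 were brighter on the NYT array before scaling as well, and Mrps10 remained above 0 under every scaling tried. Mrps21, the brightest small subunit gene, had 23937 and 16532 (0.48), at the lower quartile of the small subunit genes.

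The lowest of all members, Mrps5 and Mrps9, were in the same class. Mrps5 had 676 on the control and 310 on the NYT array, a difference of -0.11. Mrps9 had 2067 and 970 (-0.07), and Mrps6 had 3453 and 1917 (0.17). Mrps24 had 4770 and 2849 (0.27). All 4 lay below the median of all genes.

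The 10 small subunit genes found only in mitochondria had a median of 0.69. Mrps18b, which encodes 1 of several mammalian proteins related to bacterial S18, was the highest of all 76 genes, with 7764 on the control and 11688 on the NYT array. Its difference was 1.61 (3.05-fold), and it lay at percentile 97.2 of all measured genes. It was the highest member in all 13 settings tried, several of which cannot change the order, with 0.42 under spike-in scaling. It was the only member at least 3-fold higher. Its relatives stood lower, with Mrps18a at 0.83 (4973 and 4379) and Mrps18c, the homologue of S18 in the small subunit, at 0.77 (8963 and 7532). Mrps25 had 6609 and 6570 (1.01) and just passed the 2-fold line. Mrps33 (15575 and 13032, 0.76) and Mrps26 (16837 and 11879, 0.52) were bright genes of middling difference, and Mrps35 had 1592 and 924 (0.23).

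Several genes had more than 1 probe, which gives a check within the arrays. In 24 genes with several measured probes, the range between the probes of a gene had a median of 0.19 and no gene had probes of opposite sign on the scaled values. Without scaling, probes of Mrpl41, Mrpl47, Mrpl49 and Mrps14 differed in sign. In 12 genes the probes lay within 0.2 of each other. The 3 probes of Mrps18b gave 1.61, 1.61 and 1.29. The first pair is nearly the same stretch, chr17:36047331-36047390 and chr17:36047326-36047385 (mm9, minus strand), and the third lies apart from them. By the third probe alone Mrps18b would stand below Mrps10 (1.39).

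In 4 genes the probes differed by more than 0.5, and 3 of these are among the 13 genes at least 2-fold higher. Mrps14 had 1.09 with its brightest probe, 0.02 with a probe at 240 and 120, and 1.57 with a dim probe at 38.1 and 55.7. Mrps25 had 1.01 with its brightest probe and 0.03 with a probe at 317 and 159. Mrpl41 had 1.13 with its brightest probe and 0.22 with a probe at 208 and 120. Mrpl49, counted among the lowest at 0.30, had 1.33 with a second probe at 1250 and 1552. The values of these 4 genes thus turn on the probe. With the mean over probes in place of the brightest, 10 of 76 genes were at least 2-fold higher, against 11.1% of all genes. The brightest probe of Mrpl30 has header coordinates on chromosome 11 and its other probe on chromosome 1, with 0.70 and 0.62.

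**Figure D4:**
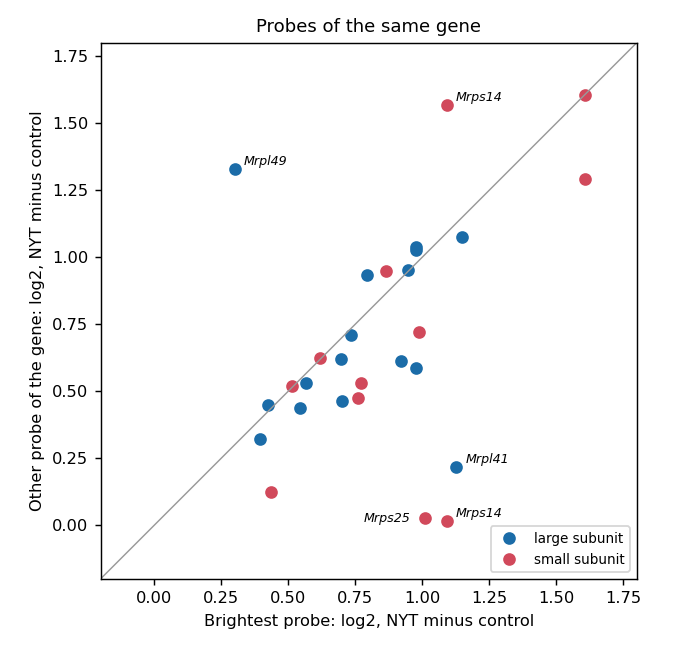
Log2 difference, NYT minus control, scaled to the 75th percentile, of the brightest probe of a gene (x axis) against each other measured probe of that gene (y axis), for the 24 genes with several measured probes; the line marks equal values. Most points lie near the line, and the labelled points of Mrps14, Mrps25, Mrpl41 and Mrpl49 lie furthest from it. Without scaling every point shifts by -1.02 along both axes.

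The lowest genes have probes of a particular kind. The header coordinates of most probes span the probe's own 60 bases, but those of some span more, as those of a probe across an exon junction would. The probes of Mrps5, Mrps9 and Mrpl37, the 3 lowest genes, are of this kind, as is the third probe of Mrps18b. Their 60-base sequences, from the scanner files and 5′ to 3′, are shown because the low end of the order rests on the first 3 and the last is the separate probe of the highest gene. Positions are on mm9.
Mrps5 at chr2:127426599-127427149, plus strand: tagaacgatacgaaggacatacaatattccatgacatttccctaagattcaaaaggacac
Mrps9 at chr1:42956365-42960169, plus strand: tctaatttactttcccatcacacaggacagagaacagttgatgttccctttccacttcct
Mrpl37 at chr4:106733238-106734539, minus strand: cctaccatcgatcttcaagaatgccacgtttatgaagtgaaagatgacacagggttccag
Mrps18b at chr17:36051313-36051461, minus strand: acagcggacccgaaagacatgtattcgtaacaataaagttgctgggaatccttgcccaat

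Such a probe stood for 10 of the 76 genes. Their median was 0.37, from -0.11 to 0.97, and that of the other 66 genes was 0.70, from 0.17 to 1.61. Without these 10 genes, every member was above 0 after scaling, the count at least 2-fold higher was 13 of 66, and large minus small turned to -0.04. Over all genes the 661 represented by such a probe had a median of 0.33 and the 16191 others 0.28. None of Mrps5, Mrps9 and Mrpl37 has another probe on the array, and the part of probe position in their low values was not tested.

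The promoters were compared because the members lay together. RefSeq promoters (GRCm38.p6) were found for 67 of the 76 genes, as 73 promoters, and the 250 bases before each start were searched on both strands for 4 motifs known from genes of mitochondrial proteins or of growth. The letters of the NRF1 motif (GCGCA, any base and GCGC in 1 run) were in 9 of 73 (12.3%), against 3.74% of all 32851 promoters. The ETS motif CCGGAAG, bound by GABP among others, was in 17 (23.3%), against 6.91%. The YY1 motif AAGATGGCG was in 2 (2.74%), against 0.606%, and the E-box CACGTG, bound by MYC among others, was in 7 (9.59%), against 6.02%. Of these 7, 3 are overlapping windows of Mrpl2, and by gene the E-box was in 5 of 67 (7.46%), against 6.86% of all 27025 genes. The member promoters were richer in G and C, with a median of 58.4% against 52.4%, and the share of GC in these counts was not tested. None of the 4 motifs is contained in another, and the NRF1 and ETS letters were both found in Mrpl17 at separate positions.

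Genes with and without a motif had these differences, which were not tested. The median difference was 0.70 for the 9 genes with the NRF1 letters and 0.70 for the 58 without, and 0.71 for the 17 genes with the ETS letters and 0.70 for those without. It was 0.77 for the 5 genes with an E-box and 0.70 without, and 0.44 for the 2 genes with the YY1 letters and 0.71 without. The NRF1 letters were in 8 of 46 large subunit promoters and in 1 of 27 small subunit promoters, that of Mrps21. A match is a description of letters and not a measured site.

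The windows below are the 250 bases before the start, 5′ to 3′ on the gene's strand, with motif letters of either strand in capitals. Mrpl45 is shown as a gene at least 2-fold higher that holds the NRF1 letters at 2 places, Mrpl12 and Mrpl17 as genes with the NRF1 letters in the upper part of the order, Mrpl17 with the ETS letters too, and Mrps18b and Mrps5 as the highest and lowest members, which hold none of the 4 motifs.
Mrpl45 at chr11:97315466-97315715, plus strand: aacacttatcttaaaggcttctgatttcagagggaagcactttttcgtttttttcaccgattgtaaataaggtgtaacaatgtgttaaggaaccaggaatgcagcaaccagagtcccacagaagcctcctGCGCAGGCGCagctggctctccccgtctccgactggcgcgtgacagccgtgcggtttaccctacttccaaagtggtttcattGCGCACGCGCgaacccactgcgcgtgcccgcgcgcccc
Mrpl12 at chr11:120484387-120484636, plus strand: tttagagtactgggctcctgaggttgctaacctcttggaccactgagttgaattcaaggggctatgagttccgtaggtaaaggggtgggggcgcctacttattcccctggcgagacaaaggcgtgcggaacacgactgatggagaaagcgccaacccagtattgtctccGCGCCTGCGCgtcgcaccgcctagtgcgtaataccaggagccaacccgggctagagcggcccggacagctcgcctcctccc
Mrpl17 at chr7:105811088-105811337, minus strand: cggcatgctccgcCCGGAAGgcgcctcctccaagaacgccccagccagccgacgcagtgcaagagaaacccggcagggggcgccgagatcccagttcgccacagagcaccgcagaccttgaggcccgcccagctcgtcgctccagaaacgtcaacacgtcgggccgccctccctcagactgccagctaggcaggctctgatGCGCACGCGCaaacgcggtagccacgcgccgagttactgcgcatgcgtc
Mrps18b at chr17:35916441-35916690, minus strand: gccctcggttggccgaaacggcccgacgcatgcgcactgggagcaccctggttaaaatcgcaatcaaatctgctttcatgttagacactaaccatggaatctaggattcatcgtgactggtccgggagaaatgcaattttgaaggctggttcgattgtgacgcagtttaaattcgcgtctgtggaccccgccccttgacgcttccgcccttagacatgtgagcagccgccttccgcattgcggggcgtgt
Mrps5 at chr2:127587176-127587425, plus strand: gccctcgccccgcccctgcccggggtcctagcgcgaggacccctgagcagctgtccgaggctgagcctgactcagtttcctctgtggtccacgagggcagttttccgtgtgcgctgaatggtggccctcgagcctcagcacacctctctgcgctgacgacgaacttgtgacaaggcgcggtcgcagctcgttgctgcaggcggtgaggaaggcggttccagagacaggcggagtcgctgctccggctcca

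The capitals lie at different distances from the start. In Mrpl45 the first bases of the NRF1 letters are 120 and 38 bases upstream, in Mrpl12 81 and in Mrpl17 49, and the ETS letters of Mrpl17 begin 237 bases upstream. The 5 genes were picked for their values and motifs, so their differences (1.11, 0.93, 0.98, 1.61 and -0.11 in the order shown) say nothing on the letters.

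Genes that work with this ribosome were read from lists. Of the 7 ribosomal subunits with other names, all measured, the median was 0.70 and 6 lay above the median of all genes. Aurkaip1, a small subunit protein, had 49102 and 49606 (1.03), Gadd45gip1, a large subunit protein, 4777 and 4720 (1.0007), and Mrp63 20054 and 16474 (0.73). Aurkaip1 and Gadd45gip1 were the 2 of these 7 at least 2-fold higher (28.6%, against 11.2% of all genes), both close to the line.

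The 14 translation factors had a median of 0.57, with 12 above the median of all genes. All 14 lay within 2-fold, as did 77.8% of all genes. Tufm, which delivers aminoacyl-tRNA to the mitochondrial ribosome, had 8966 and 8419 (0.93). Taco1, an activator of translation of a respiratory chain subunit, had 218 and 194 (0.85), and Gfm2, a ribosome recycling factor, 1570 and 1389 (0.84).

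The lists for building the ribosome and charging its tRNAs lay nearer to the middle of all genes. Of 20 assembly genes, 19 were measured, with a median of 0.34 and 11 above the median of all genes, where Eral1, a chaperone of the small ribosomal RNA, had 1042 and 1004 (0.97). The methyltransferases Mrm1 (0.91) and Rnmtl1 (0.90) came next. Of 17 mitochondrial aminoacyl-tRNA synthetases, 16 were measured, with a median of 0.32 and 9 above the median of all genes. All 16 lay within 2-fold, as did 77.8% of all genes. Their largest values were 0.79 for Yars2, 0.72 for Sars2 and 0.65 for Iars2. The 12 genes of mitochondrial transcription and DNA upkeep had a median of 0.38 and the widest interquartile range of the 9 lists (0.75), and in this list Polg, the mitochondrial DNA polymerase, had 2348 and 618 (-0.91), against 0.91 for Pprc1 and 0.75 for Peo1, the helicase.

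Import genes and folding genes were read in the same way. The 22 import genes had a median of 0.75, 19 lay above the median of all genes and 6 were at least 2-fold higher (27.3%, against 11.2% of all genes), with Timm10, an intermembrane space chaperone, at 1.49 (5403 and 7507), Tomm20, an outer membrane receptor, at 1.22 and Timm8a1 at 1.21. The 16 chaperones and proteases had a median of 0.61 and 2 at least 2-fold higher (12.5%, near the share of all genes), Hspa9, the matrix Hsp70, at 1.54 (7745 and 11099) and Hspe1, the co-chaperonin, at 1.12. Its partner Hspd1 had 0.95.

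The sets most like the mitochondrial ribosome in size were the respiratory chain and the cytosolic ribosome. The 77 genes of the respiratory chain and ATP synthase had a median of 0.71 and an SD of 0.30. Of them, 73 lay above the median of all genes and 12 were at least 2-fold higher (15.6%, against 11.2% of all genes). Their highest were Ndufc1 (1.32), Uqcrq (1.23) and Ndufs5 (1.22). The 79 measured genes of 81 for the cytosolic ribosome had a median of 0.65 and an SD of 0.26. Of these, 77 lay above the median of all genes and 5 were at least 2-fold higher (6.33%, below the 11.2% of all genes). The highest were Rps15a (1.37), Rplp1 (1.06) and Rpl38 (1.06). No difference between the 3 medians was tested. Under quantile normalization the median was 0.54 for the mitochondrial ribosome, 0.36 for the respiratory chain and 0.04 for the cytosolic ribosome. That of all genes was 0.20 there, so the cytosolic set lay below it in that setting. All 3 sets are bright, with median control intensities of 5225, 24561 and 111096, and levels of different probes are not compared further.

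The scaling decides the sign of most members and not their place among all genes. The median of the 76 genes was above 0 in 11 of 13 settings and below 0 without scaling and with spike-in scaling. In all 13 settings it lay above the median of all genes. The distance ran from 0.19 without a filter on dim probes, where 30220 genes entered, to 0.42 with loess. Of the 10 highest members, 8 to 10 were again among the 10 highest in each other setting, and of the 10 lowest, 7 to 10.

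**Figure D5:**
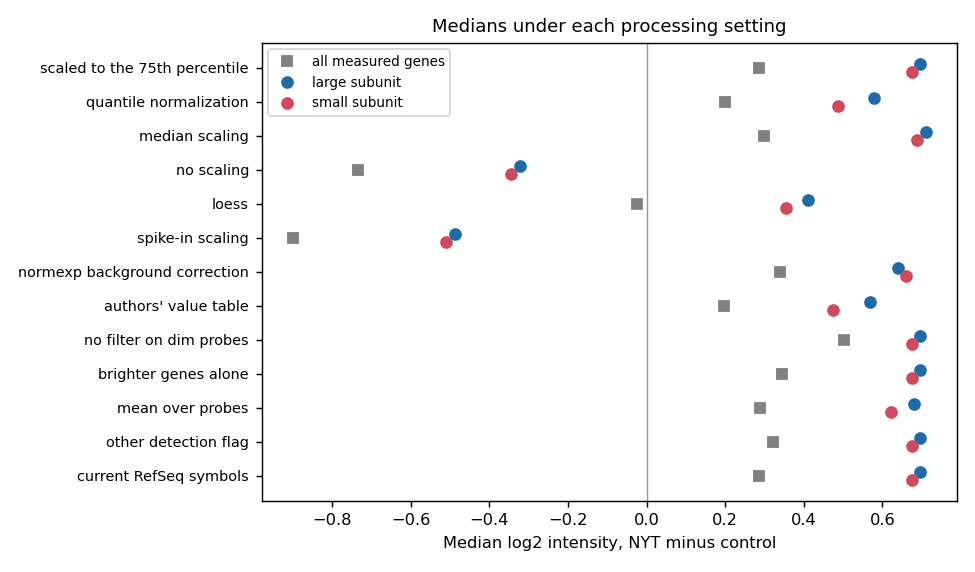
Median log2 difference, NYT minus control (x axis), of the large subunit genes, the small subunit genes and all measured genes under each of 13 processing settings (y axis). Both subunits lie to the right of all genes in each setting, at most 0.09 apart, and both lie below 0 without scaling and with spike-in scaling.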

How the data were processed

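The authors deposited the scanner's spot intensity of 4x44K whole-mouse arrays with 60-base probes. The headers of these files name Agilent Feature Extraction 10.7.1.1, and the submitters' processing notes 9.5.1.1. The deposited processed intensity is detrended, with surrogate values near background, per the headers. The RNA kit differs between the labels and the design text. A table of linear intensity values, also deposited by the authors and with a median of 72.07 on both arrays, served as an alternative. No source used here says how its values were made.

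Outlier spots (258 in control, 165 in NYT) were left out, no spot was saturated, and log2 values were averaged per probe and reduced by the array's 75th percentile. A probe was well above background when over 50% of its spots were (62.2% of 39429 probes in control, 57.7% in NYT). Of the probes that passed on both arrays, the brightest stood for the gene. Probe coordinates are on mm9 per the file headers; RefSeq promoters are on GRCm38.p6. Normexp used limma 3.58.1 in R 4.3.3. Loess used statsmodels 0.14.6 in Python 3.11.15, and the rest used Python with pandas 2.3.3. With 1 array per group no test was possible, and the number of arrays limits the precision. The counting step was tested on simulated data.

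Named members were the 5 highest, 5 lowest and 3 brightest of each subunit, all at least 2-fold apart and all whose probes differed by over 1; other members appear as part of a whole structural group, and companion lists give their 3 largest differences. Members, lists and rules were chosen with earlier results of these data known. Spans of probes, neighbouring genes and probe order were examined after the members' values had been seen, so the genes singled out there fall outside the rule, as do Mrps21's motif, Mrpl30, Mrpl34 and Mrpl50, and the marker genes named.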

Additional observations from a re-analysis of the deposited data

How the results depend on the processing

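The median difference of 0.70 was above 0 in 11 of 13 settings; it was 0.54 under quantile normalization, 0.53 in the authors' value table, 0.39 with loess, -0.32 without scaling and -0.49 with spike-in scaling, and the cause was not tested. The 13 members at least 2-fold higher became 4 under quantile normalization and in the value table, and 3 with loess. Of all genes, 11.0%, 10.97% and 5.54% were so in these 3 settings. There were 0 such members without scaling and with spike-in scaling, against 1.25% and 0.96% of all genes. The members' share was thus below that of all genes in these 5 settings, and above it in the others. At least 2-fold lower were 2 members without scaling and 5 with spike-in scaling, against 36.43% and 44.32% of all genes. After scaling, 47 members were higher at 1.5-fold and 1 at 3-fold. Members above 0 after scaling numbered 74, and 12 without scaling, 3 with spike-in scaling, 70 with loess and 73 under quantile normalization. Large minus small stayed between -0.04 and 0.09 in all settings. With spike-in scaling or none, most members were below 0. Among the named genes at least 2-fold higher, Mrps25 (-0.0084) and Gadd45gip1 (-0.0175) turned below 0 without scaling. With spike-in scaling those that did were Mrpl2 (-0.13), Mrpl20 (-0.15), Mrpl23 (-0.0351), Mrpl41 (-0.0576), Mrpl45 (-0.0752), Mrpl51 (-0.11), Mrpl55 (-0.0721), Mrps14 (-0.0924), Mrps25 (-0.17), Mrps28 (-0.0432), Aurkaip1 (-0.15), Gadd45gip1 (-0.18), Hspe1 (-0.0652), Rpl38 (-0.12) and Rplp1 (-0.12). Of 309 values of the 26 named members under the alternatives, 170 moved by no more than the spot noise and 128 by more. The other 11 are the sign changes of 2-fold members listed here. Many of the 170 could not have moved. The settings that changed the filter on dim probes or kept brighter genes alone left each measured value as it was. Median scaling shifted every gene by less than the spot noise. No paired analysis was possible because there was only 1 array a group, so none could be left out either. Leaving out genes whose probe spans over 60 bases was added after seeing the data and gave 0.70.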

Other observations

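Promoters shared with a neighbour gave further values. By RefSeq, 25 of 67 member genes start head to head with another gene, within 1000 bases. Mrpl46 (0.68) and Mrps11 (0.35), 1 gene of each subunit, are the only pair of members, with 42 bases between their starts. In the 22 genes with a measured partner outside the set, the median was 0.78 for the member and 0.37 for the partner, against 0.29 for all genes. The partner was the lower in 18 (81.8%), and on average 75.9% of all measured genes lay below these members. None of these partners was at least 2-fold higher on the NYT array, against 11.2% of all genes. At least 2-fold lower was 1 of the 22, against 11.0% of all genes, and 12 lay above the median of all genes. Ncapd2, the partner of Mrpl51 (1.07), had -1.17, and Ppp1r10, that of Mrps18b (1.61), had -0.11. The reverse order was seen for Mrps5 (-0.11) with Zfp661 (0.90) and for Mrpl37 (0.05) with Cyb5rl (0.83). These pairs were picked after their values were seen, with scaling to the 75th percentile.

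In 4 genes, Mrpl41, Mrpl49, Mrps14 and Mrps25, the probes differed by over 0.5. In each, the probe nearest the 5′ end gave a higher log2 difference, NYT minus control, than the 3′-most probe. Over the 20 members with probes at separate places, the 3′-most probe gave the higher difference in 11 (55.0%). Over 3673 genes of the array it did so in 1465 (39.9%). The median of 3′ minus 5′ was 0.06 for the members and -0.13 for all these genes. The arrays labelled RNA by amplification, and RNA quality was not among the values used here.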
